A study of Mus musculus with 8 samples.

Results

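Iron and heme handling was followed through 7 genes of the 16889 in the count table, chosen for their role with earlier results of these data known. They were Tfrc and Slc11a1 for iron uptake and movement, Fth1 and Ftl1 for storage, Slc40a1 for export, and Hmox1 and Blvrb for heme breakdown. All 7 were measured in each of 8 mice. The study sorted CD11b+ cells that carried CCR2 or CD64 from the lamina propria of the colon and sequenced them one by one with a 10x Genomics 3′ kit, in which each captured molecule is counted once by its unique molecular identifier (UMI). The mice were CD98hcΔCX3CR1 female littermates of 6 to 12 weeks, which carry a floxed CD98hc gene (Slc3a2) and a tamoxifen-inducible Cre with a YFP reporter driven from Cx3cr1. The 4 cKO mice (replicates 5, 6, 7 and 8) received 100 µl of tamoxifen at 20 mg/ml on 5 consecutive days, the 4 control mice (replicates 1, 2, 3 and 4) received corn oil, and cells were taken on day 7. The alleles were shared by both groups and only the cKO mice received the drug, so that tamoxifen itself and the loss of CD98hc cannot be told apart.

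Tissue macrophages take up senescent cells, break down their heme, and either store the iron or return it to the circulation. Transferrin receptor (Tfrc) brings in transferrin-bound iron, and the phagosomal transporter encoded by Slc11a1 moves divalent metal out of the phagosome. Heme oxygenase 1 (Hmox1) opens the heme ring and frees its iron, and biliverdin reductase B (Blvrb) is a cytosolic reductase that acts on biliverdin and flavins. Ferritin stores iron in a shell built from heavy chains (Fth1), which oxidise it, and light chains (Ftl1), which help it to mineralise, while ferroportin (Slc40a1) is the known iron exporter of the cell.

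Ferritin, ferroportin and transferrin receptor mRNAs are known to be controlled after transcription through the iron-responsive element, a stem with an unpaired C and a CAGTGN loop that iron regulatory proteins bind when iron is low. Its sequences are shown because a level of these mRNAs is not a level of their proteins. A search of the GENCODE vM21 transcripts (GRCm38, the assembly that mm10 names) for CNNNNNCAGTGN with a paired stem of 5 bases around the loop, on the transcribed strand, found the pattern in the 5′ UTR of Fth1, Ftl1 and Slc40a1, 3 of the 7 genes, and of 28 of 21899 genes in all (0.128%). In the 3′ UTR it was found in Tfrc, with 4 sites, and in 127 of 21899 genes in all (0.58%). The sites are given 5′ to 3′ with the loop in capitals. A match describes these letters and not a bound site.
Fth1, chr19:9982733-9982760, plus strand: tcctgcttcaaCAGTGCttgaacggaac
Ftl1, chr7:45459779-45459806, minus strand: tcttgcttcaaCAGTGTttgaacggaac
Slc40a1, chr1:45925465-45925492, minus strand: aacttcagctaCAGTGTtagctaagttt
Tfrc, chr16:32631220-32631247, plus strand: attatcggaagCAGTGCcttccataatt
Tfrc, chr16:32631599-32631626, plus strand: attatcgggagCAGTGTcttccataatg
Tfrc, chr16:32631664-32631691, plus strand: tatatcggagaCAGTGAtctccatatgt
Tfrc, chr16:32631711-32631738, plus strand: attatcgggaaCAGTGTttcccataatt
The same site as that of Ftl1 was found in Ftl1-ps1, a near-identical copy of the gene on chromosome 13. The genes themselves lie on chromosome 19 from 9980598 to 9985098 (Fth1), on chromosome 7 from 45457944 to 45459884 (Ftl1), on chromosome 1 from 45908068 to 45926523 (Slc40a1) and from 74375195 to 74386062 (Slc11a1), on chromosome 16 from 32608920 to 32632794 (Tfrc), on chromosome 8 from 75093621 to 75100589 (Hmox1) and on chromosome 7 from 27447978 to 27466144 (Blvrb).

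The 3213 cells kept came from 8 libraries of 83 to 724 cells and 497531 to 3762314 UMIs, and control replicate 3 and cKO replicate 5 stood apart with 85 and 83 cells. In cKO replicate 5, 24 of the 83 cells were called doublets. The targeted gene Slc3a2 was at 232.5 to 493.1 CPM (UMIs scaled to a common library size) in control mice and at 291.4 to 357.3 CPM in cKO mice, a log2 fold change of 0.02 (SE 0.21, edgeR adjusted p = 0.976). A count at the 3′ end does not check a deletion of exon 3, and the groups are named as they are labelled. Of 3213 cells kept, 16 had a barcode that also occurred in another library. Cells fell into 9 clusters built without 314 genes, among them the 7, the marker genes and genes the study listed as differing between groups. Monocyte-like, macrophage-like, dendritic cell-like, lymphoid-like and stromal-like clusters were named from their markers, a second macrophage-like cluster had 0.237 times the median UMIs of its own mice (low-UMI macrophage-like), and the remaining clusters are called by leading genes: Arg1 and Il1a, Ccr2 and Ms4a8a, and Cebpb and Cxcr4. The Cebpb and Cxcr4 cluster was also shallow, at 0.353 times the median UMIs of its own mice. The sort aimed at monocytes and macrophages, and 16.6% of the cells were dendritic cell-like, 5.66% lymphoid-like and 2.74% stromal-like.

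The first question was which cells carry these genes. Both ferritin genes were high throughout: by mean CPM over mice, a 3′ count that does not grow with transcript length, Fth1 stood at rank 4 and Ftl1 at rank 10 of 11387 genes tested. Levels were compared within mice between sums of at least 20 cells of a mouse in a cluster. Over the 7 genes and the pairs of clusters that at least 3 mice held, every mouse pointed the same way in 100 of 189 comparisons (52.9%). Neighbours in the order of levels were tested with a two-sided exact sign-flip test over mice, in which 6 mice cannot give a p below 0.0312. Of these neighbour tests none passed after adjustment over the 51 with at least 2 mice. None could have passed, because the smallest p that these mice allow is too large for 51 tests. The adjusted p-values of neighbours therefore do not show that clusters are alike.

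**Figure D1:**
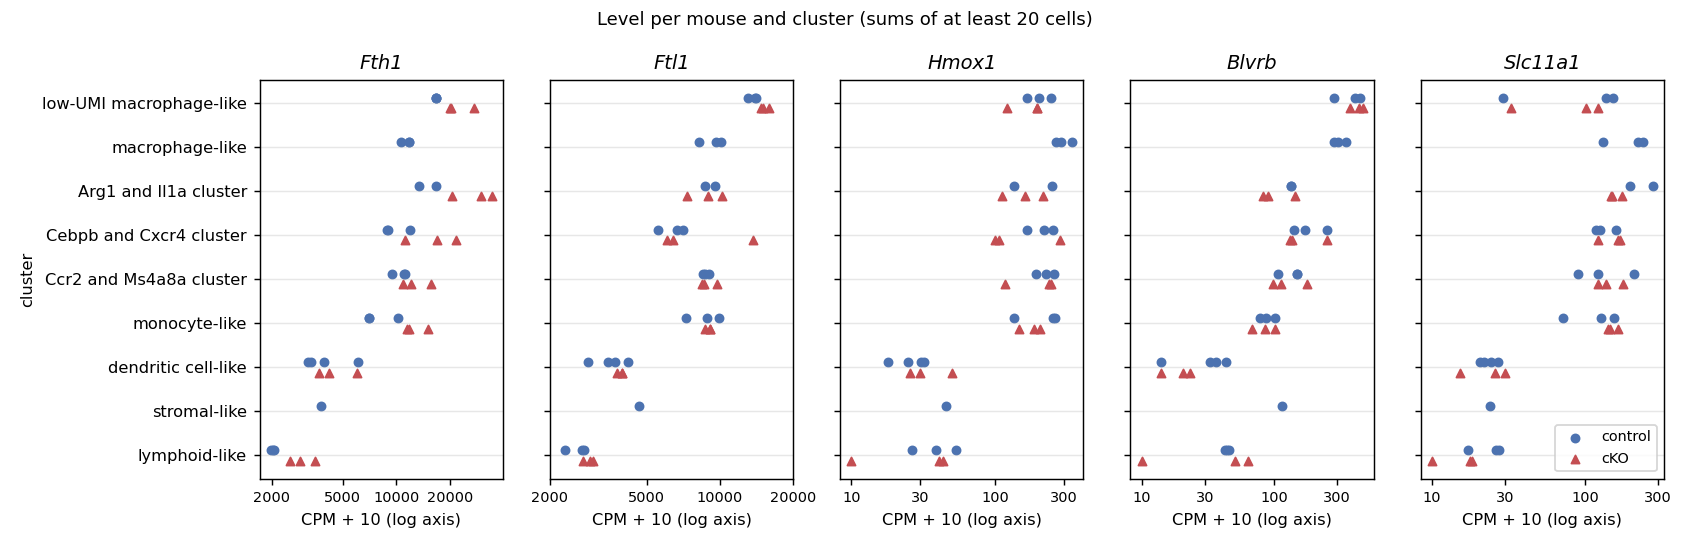
Level of 5 genes in CPM + 10 on a log axis for each mouse and cluster with at least 20 cells. Circles are control mice and triangles are cKO mice, and dendritic cell-like, stromal-like and lymphoid-like sums lie at the low end for Fth1, Ftl1, Hmox1 and Slc11a1.

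Means over mice mix both groups, and the mix differs between clusters: the Arg1 and Il1a cluster had sums from 2 control and 3 cKO mice and the macrophage-like cluster from 3 control mice alone. Over both groups, the mean of Fth1 was highest in the Arg1 and Il1a cluster, where the 5 mice ranged from 13440 over a median of 20380 to 34310 CPM. The low-UMI macrophage-like cluster followed with 16610, 18440 and 27390 CPM as lowest, median and highest of 6 mice, and these neighbours did not differ beyond their spread (0.12 ± 0.34 on the log2 scale, SD, n = 5 mice, exact p = 0.312). In control mice alone the order was the other way, with means of 15100 ± 2355 CPM (SD, n = 2) in the Arg1 and Il1a cluster and 16670 ± 85.05 CPM (n = 3) in low-UMI macrophage-like sums. Cebpb and Cxcr4 (mean 13260 ± 5054 CPM, SD, n = 6), Ccr2 and Ms4a8a (11710 ± 2086, n = 6), macrophage-like (11370 ± 640.9, n = 3) and monocyte-like sums (10440 ± 3094, n = 6) came next and overlapped. In control mice alone the macrophage-like mean lay above those of Ccr2 and Ms4a8a (10550 ± 973.3, SD, n = 3) and Cebpb and Cxcr4 sums (9930 ± 1681, n = 3), so that the order among these clusters moved with the mix of groups. Monocyte-like sums exceeded dendritic cell-like sums (4340 ± 1219 CPM, n = 7) in 6 of 6 mice, by 1.19 ± 0.37 on the log2 scale (SD, exact p = 0.0312, the smallest that 6 mice allow, adjusted p = 0.398). Lymphoid-like sums were lowest with 1969 to 3470 CPM in 6 mice.

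Ftl1 was ordered differently at the top. It was highest in low-UMI macrophage-like sums, at 13050, 14400 and 15820 CPM as lowest, median and highest of 6 mice. In the macrophage-like, Arg1 and Il1a, Ccr2 and Ms4a8a and monocyte-like clusters its mean lay between 8791 and 9301 CPM, and neighbours among them differed by 0.01 to 0.12 on the log2 scale. Dendritic cell-like sums (3686 ± 434.0 CPM, SD, n = 7) exceeded lymphoid-like sums (2727 ± 242.2 CPM, n = 6) in 6 of 6 mice by 0.49 ± 0.11 (log2, SD, exact p = 0.0312, adjusted p = 0.398). Reads of Ftl1 cannot be fully told from those of its copy: over all cells, Ftl1-ps1 held 57199 UMIs, 46.1% of the 124068 UMIs of Ftl1. The Ftl1 level is uncertain by an amount that differs between mice. Adding the copy moved the Fth1 to Ftl1 ratio in all cells from 1.25 to 0.94 in control replicate 2. In cKO replicate 5 it moved from 1.19 to 0.66.

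The ratio of Fth1 to Ftl1 UMIs within a sum is free of scaling between libraries, and is used to compare sums, not as a ratio of proteins. It was 2.64 ± 1.26 (SD, n = 5 mice) in the Arg1 and Il1a cluster, 1.80 ± 0.51 (n = 6) in the Cebpb and Cxcr4 cluster, 1.35 ± 0.20 (n = 6) in low-UMI macrophage-like sums and 0.91 ± 0.17 (n = 6) in lymphoid-like sums. The Arg1 and Il1a cluster exceeded the Cebpb and Cxcr4 cluster in 5 of 5 mice (exact p = 0.0625, the smallest that 5 mice allow, adjusted p = 0.531), and the latter exceeded the low-UMI macrophage-like cluster in 6 of 6 (exact p = 0.0312, adjusted p = 0.398). The remaining clusters lay between 0.82 and 1.34. In control mice alone the ratio was 1.66 ± 0.14 (SD, n = 2) in the Arg1 and Il1a and 1.55 ± 0.17 (n = 3) in the Cebpb and Cxcr4 cluster. These ratios leave out the UMIs of Ftl1-ps1. Arg1 encodes arginase 1 and Il1a the cytokine interleukin 1 alpha, and both were among the 10 leading genes of the cluster with the highest mean ratio.

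Hmox1 was carried by the monocyte and macrophage clusters. Macrophage-like sums had the highest level, at 255.6, 332.7 and 275.3 CPM in the 3 control mice with enough cells. The other clusters of that lineage and the Arg1 and Il1a, Ccr2 and Ms4a8a and Cebpb and Cxcr4 clusters had means of 163.1 to 200.6 CPM, and no neighbours among them differed beyond their spread. Stromal-like (35.1 CPM, 1 mouse), lymphoid-like (25.3 ± 15.1, SD, n = 6) and dendritic cell-like sums (20.1 ± 9.9, n = 7) were several times lower.

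Blvrb was highest in both macrophage-like clusters. Its level was 396.0 ± 67.4 CPM (SD, n = 6) in low-UMI macrophage-like and 303.5 ± 33.4 CPM (n = 3) in macrophage-like sums, against 77.2 ± 12.8 CPM (n = 6) in monocyte-like sums. Within mice, low-UMI macrophage-like exceeded monocyte-like sums by 2.21 ± 0.46 on the log2 scale (SD) in 6 of 6 mice. For Hmox1 the same pair differed by 0.07 ± 0.51 with the monocyte-like sums higher in 4 of 6 mice. Dendritic cell-like sums were lowest for Blvrb, at 16.4 ± 11.5 CPM (n = 7).

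Slc11a1 was likewise a gene of the monocytes and macrophages. It was at 187.4 ± 57.4 CPM (SD, n = 3, all control) in macrophage-like, 179.1 ± 53.4 (n = 5) in the Arg1 and Il1a cluster and 124.0 ± 32.9 (n = 6) in monocyte-like sums. Dendritic cell-like sums were at 13.6 ± 4.9 (n = 7) and lymphoid-like sums at 9.4 ± 6.4 (n = 6). Pooled over control cells alone, the Arg1 and Il1a cluster lay above the macrophage-like cluster (208.1 against 174.3 CPM). With every cell thinned to 1000 UMIs, the share of cells with a UMI of Slc11a1 was 11.4% to 22.2% in macrophage-like cells of 3 mice and 0% in lymphoid-like cells of 6 mice. Without thinning, 5.62% of 89 lymphoid-like control cells (95% Wilson interval 2.42% to 12.5%, median 3574.0 UMIs per cell) and 54.4% of 298 macrophage-like control cells (48.7% to 59.9%, median 5380.5 UMIs) had one. Lymphocytes do not normally carry this transporter, and the source of the share in lymphoid-like cells was not tested. Intervals and floors in the text cover counting error only.

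Tfrc and Slc40a1 were near the limit of detection. Tfrc stood at rank 7842 and Slc40a1 at rank 10595 of 11387 genes. Of the Tfrc UMIs, 39 of the 69 in control libraries and 14 of the 41 in cKO libraries lay in dendritic cell-like cells, at 9.26 CPM (95% exact Poisson interval 6.58 to 12.7) and 15.6 CPM (8.51 to 26.1), and its highest mean over mice was that of the Cebpb and Cxcr4 cluster (17.8 ± 14.9 CPM, SD, n = 6). That cluster held 3 Tfrc UMIs in control and 6 in cKO cells. Dendritic cell-like control cells held the most UMIs of all genes among the clusters (4213026), which bears on their number of Tfrc UMIs. Lymphoid-like cells were at 12.8 CPM of Tfrc (4.16 to 29.9) in control and at 5.01 CPM (0.607 to 18.1) in cKO mice. No neighbours in the order of Tfrc differed beyond their spread. Of the Slc40a1 UMIs, 18 of the 29 in control libraries came from the 69 stromal-like control cells, a pooled level of 53.4 CPM (31.7 to 84.4), and 14 of these 69 cells (20.3%) had one. The 298 macrophage-like control cells held 5 UMIs (2.93 CPM, 0.95 to 6.83). The 434 dendritic cell-like control cells held none, which allows a level of up to 0.712 CPM by a floor of 3 UMIs. Low-UMI macrophage-like cells held 4 UMIs in 148 control cells (20.8 CPM, 5.68 to 53.3) and 4 in 126 cKO cells (22.3 CPM, 6.06 to 57.0), so that the level in macrophages rests on a handful of molecules.

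The genes whose pattern was most like that of each member were taken by Pearson correlation of log2(CPM + 10) over the 46 sums of a mouse and a cluster, which share mice, libraries and depth. For Fth1 they were Cstb (0.93), Sdcbp (0.92) and Clec4n (0.92), and for Ftl1 its copy Ftl1-ps1 (0.95), Clec4a1 (0.94) and Fcgr3 (0.91). For Hmox1 they were Pla2g7 (0.90), Fcgr3 (0.89) and Lyz2 (0.87). Those of Blvrb were Selenop (0.91), Apoe (0.90) and Lgmn (0.87), and those of Slc11a1 were Csf1r (0.92), Csf3r (0.89) and Fcgr2b (0.88). For the sparse Slc40a1 (Smim1, Akr1b8 and Gpx3, 0.80 to 0.88) and Tfrc (Cdc34, Cdc14a and Ap1g2, 0.60 to 0.67) the order rests on few UMIs. Among the members, Fth1 and Ftl1 had a correlation of 0.90, and Hmox1 had 0.85 with Slc11a1 and 0.85 with Ftl1.

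The second question was whether cKO mice differed from controls. In all cells summed per mouse, both ferritin genes rose and the other 5 genes did not pass the test, as the plot of levels by mouse shows. edgeR's quasi-likelihood test called 2 of the 7 genes at an adjusted p under 0.05, beside 510 of 11387 genes tested (4.48%). In 2 of the 7 genes the lowest cKO mouse exceeded the highest control mouse, as in 4.01% of all genes, and in none was every cKO mouse lower, as in 8.35% of all genes. The median log2 fold change over all genes was -0.03.

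**Figure D2:**
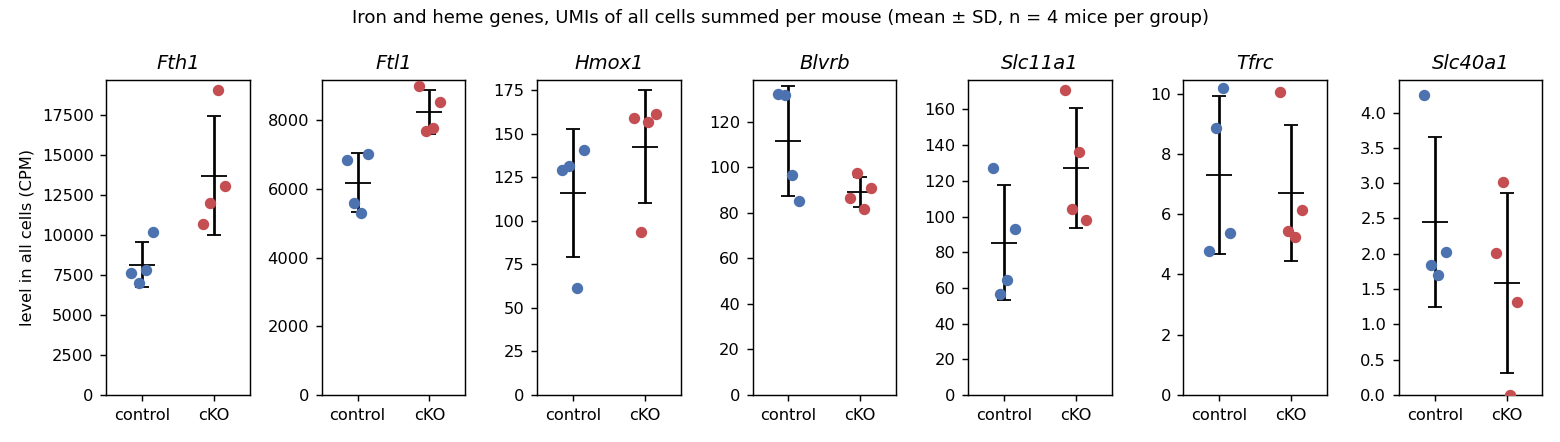
Level of the 7 genes in CPM, all cells of a mouse summed, on linear axes from 0. Points are mice, the bar is the mean and the whiskers the SD of 4 mice per group, and Fth1 and Ftl1 are the genes whose groups do not overlap.

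Fth1 was at 7633, 6984, 7837 and 10170 CPM in control replicates 1 to 4 and at 10680, 11990, 19110 and 13080 CPM in cKO replicates 5 to 8. Every cKO mouse lay above every control mouse, narrowly so between control replicate 4 and cKO replicate 5, and cKO replicate 7 was highest. The log2 fold change was 0.85 (SE 0.20, edgeR adjusted p = 0.0347).

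Ftl1 was at 6839, 5607, 5301 and 7015 CPM in control mice and at 9002, 7681, 7775 and 8541 CPM in cKO mice. The groups again did not overlap. The log2 fold change was 0.51 (SE 0.13, edgeR adjusted p = 0.0492). It was 0.62 with the UMIs of Ftl1-ps1 added to those of Ftl1 (adjusted p = 0.0391).

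Together the ferritin genes made up 1.43% ± 0.20 of all UMIs in control mice and 2.20% ± 0.34 in cKO mice (SD, n = 4 each). The 4 control mice ranged from 1.26% to 1.72% and the 4 cKO mice from 1.97% to 2.69%, with no overlap (exact permutation p = 0.0286, the smallest that 4 against 4 allow, adjusted p = 0.0572 over both ferritin measures). Without cKO replicate 7 the difference in this share was 0.598 percentage points in place of 0.762 (exact permutation p = 0.0571). The Fth1 to Ftl1 ratio was 1.12, 1.25, 1.48 and 1.45 in control mice and 1.19, 1.56, 2.46 and 1.53 in cKO mice, and these overlapped (difference 0.31 on the log2 scale, exact permutation p = 0.200, adjusted p = 0.200). Without cKO replicate 5 the difference in the ratio was 0.46 (exact permutation p = 0.0286), and without cKO replicate 7 it was 0.11 (exact permutation p = 0.514). With the UMIs of Ftl1-ps1 added to those of Ftl1, the ratio was 0.80, 0.94, 0.84 and 1.007 in control mice and 0.66, 1.03, 1.69 and 0.99 in cKO mice. It then lay below 1 in 5 of 8 mice, where it had been above 1 in 8 of 8, and cKO replicate 5 was the lowest (difference 0.21 on the log2 scale, exact permutation p = 0.600).

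The make-up of the sort moved with these differences. Dendritic cell-like cells, which were low in ferritin mRNA, made up 24.2% ± 3.4 of control cells and 7.72% ± 2.1 of cKO cells (SD, n = 4, exact permutation p = 0.0286, adjusted p = 0.0858 over 9 clusters), monocyte-like cells 7.78% ± 2.21 and 30.1% ± 10.5 (same p), and macrophage-like cells 14.4% ± 9.7 and 3.77% ± 1.74 (exact p = 0.0571, adjusted p = 0.128). The 8 dendritic cell markers, all detected in every mouse, summed to 588.7 to 623.0 CPM in control mice and to at most 237.2 CPM in cKO mice. In such sums, fewer cells of a type and less RNA per cell cannot be told apart. With the dendritic cell-like, lymphoid-like and stromal-like clusters left out, 1 of the 7 genes, Blvrb, was called and neither ferritin gene was, beside 333 of 10051 genes called (3.31%): the log2 fold change was 0.49 for Fth1 (edgeR adjusted p = 0.135) and 0.20 for Ftl1 (adjusted p = 0.466). The ferritin share of UMIs was then 1.93% to 2.33% in control mice and 2.37% to 2.97% in cKO mice. The groups still did not overlap, narrowly so between control replicate 4 and cKO replicate 6 (exact permutation p = 0.0286, unadjusted). This setting was not planned for the share. The Fth1 call in all cells was also lost without doublet calls (0.80, edgeR adjusted p = 0.0931) and without each mouse other than control replicate 4 and cKO replicate 5 (0.63 to 0.92, adjusted p of 0.0546 to 0.128). The Ftl1 call was lost without doublet calls (0.42, edgeR adjusted p = 0.144) and without each mouse other than control replicate 4 (0.46 to 0.56, adjusted p of 0.0683 to 0.18). It was also lost with edgeR's likelihood ratio test, with no filter on low counts, with hemoglobin cells kept, with up to 10% mitochondrial UMIs and with control replicate 3 and cKO replicate 5 left out (0.43 to 0.51, adjusted p of 0.0519 to 0.0838), so that 7 of 10 processing alternatives lost it.

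Hmox1 was at 129.4, 131.5, 61.1 and 140.7 CPM in control mice and at 158.8, 93.7, 156.9 and 161.0 CPM in cKO mice. The groups overlapped, with control replicate 3 and cKO replicate 6 below the rest. The log2 fold change was 0.37 (SE 0.24, edgeR adjusted p = 0.422), and it turned to -0.22 (adjusted p = 0.681) without the dendritic cell-like, lymphoid-like and stromal-like clusters.

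Blvrb was at 132.4, 131.8, 96.8 and 85.2 CPM in control mice and at 86.4, 97.4, 81.7 and 91.0 CPM in cKO mice, a log2 fold change of -0.23 (SE 0.17, edgeR adjusted p = 0.477). Without the dendritic cell-like, lymphoid-like and stromal-like clusters it was at 195.8, 251.1, 182.6 and 132.8 CPM in control mice and at 105.2, 117.5, 92.9 and 112.9 CPM in cKO mice. Every cKO mouse then lay below every control mouse, and Blvrb fell, with a log2 fold change of -0.79 (adjusted p = 0.0433). The share of macrophage-like cells, among the highest in Blvrb, moved the same way, and its part in the change of Blvrb was not tested.

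Slc11a1 was at 127.3, 56.6, 64.5 and 93.2 CPM in control mice and at 170.8, 104.0, 135.9 and 98.0 CPM in cKO mice, overlapping through control replicate 1 (log2 fold change 0.63, SE 0.26, edgeR adjusted p = 0.195, and 0.09 without the dendritic cell-like, lymphoid-like and stromal-like clusters). Tfrc had 18, 29, 6 and 16 UMIs in control libraries and 5, 9, 13 and 14 in cKO libraries, at 4.78 to 10.2 CPM and 5.23 to 10.05 CPM (log2 fold change -0.04, SE 0.34, adjusted p = 0.984). Slc40a1 had 16, 6, 1 and 6 UMIs in control libraries and 1, 5, 0 and 3 in cKO libraries (log2 fold change -0.85, SE 0.70, adjusted p = 0.536), and 12 of the 16 UMIs of control replicate 1 came from stromal-like cells. No difference of Tfrc or Slc40a1 was detectable at this depth.

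Of 45 further genes of iron and heme handling, 40 were tested in all cells, 2 rose, 2 fell and 36 did not pass, beside 4.48% of all genes called (median log2 fold change 0.05, against -0.03 over all genes). Those that rose were Spic (1.22, SE 0.26, edgeR adjusted p = 0.0224), a transcription factor induced by heme and needed for red pulp macrophages of the spleen, and Alas1 (1.22, SE 0.26, adjusted p = 0.0245), which encodes the first and rate-limiting enzyme of heme synthesis in non-erythroid cells. Those that fell were Hfe (-1.001, SE 0.19, adjusted p = 0.0137), whose protein modulates iron sensing through transferrin receptors, and Hebp1 (-1.05, SE 0.24, adjusted p = 0.0295), which encodes a heme-binding protein. These 4 calls rest on all cells summed, whose make-up differed between the groups, and are given for the main fit alone. The part of that make-up in them was not tested. Within clusters none of the 40 passed. The erythroid markers, 6 of 6, had no UMI in any cell kept. For the globin genes this follows from the cell filter.

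The third question was whether ferritin differed within a cell cluster. In the contrast of cKO against control in 7 clusters, Fth1 rose in the Arg1 and Il1a cluster and in the monocyte-like cluster, and these were the 2 calls among 49 combinations of gene and cluster. The calls stood beside 0.787% of 11060 genes in the Arg1 and Il1a cluster and 0.85% in the monocyte-like cluster. All clusters shared an estimate of the spread in this fit, which treated sums of the same mouse as separate samples. In the lymphoid-like (0.0723% of genes called), low-UMI macrophage-like (0.154%), Ccr2 and Ms4a8a (0.588%), Cebpb and Cxcr4 (0.0181%) and dendritic cell-like clusters (0.488%) none of the 7 genes passed.

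**Figure D3:**
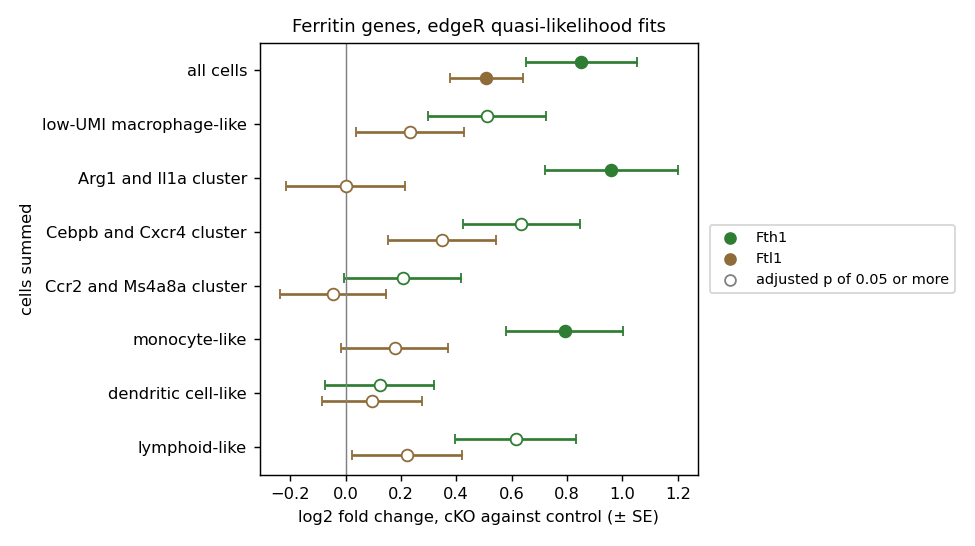
log2 fold change of Fth1 and Ftl1, cKO against control, with its SE, for all cells and for each cluster with sums in both groups. Filled points passed an adjusted p of 0.05 (edgeR), and Fth1 lies above Ftl1 in all 8 rows.

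In the Arg1 and Il1a cluster Fth1 was at 13440 and 16770 CPM in control replicates 1 and 4 and at 20380, 34310 and 29730 CPM in cKO replicates 6, 7 and 8. Both groups were small and did not overlap. The log2 fold change was 0.96 (SE 0.24, edgeR adjusted p = 0.0298), while that of Ftl1 was 0.00 (SE 0.22, adjusted p = 1.0), with Ftl1 at 8631 and 9535 CPM in control and at 8903, 7335 and 10150 CPM in cKO sums. The ratio of Fth1 to Ftl1 was 1.56 and 1.76 in control sums and 2.29, 4.68 and 2.93 in cKO sums. Sums under 20 cells, which did not enter the test, had Fth1 at 14620 and 13920 CPM in control replicates 2 and 3 and 18750 CPM in cKO replicate 5. Their ratios were 1.98, 1.84 and 1.44, so that the cKO mouse with the fewest cells lay below all 4 control mice.

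In the monocyte-like cluster Fth1 was at 7045, 7016 and 10200 CPM in control replicates 1, 2 and 4 and at 11800, 15080 and 11520 CPM in cKO replicates 6, 7 and 8. The groups did not overlap. The log2 fold change was 0.79 (SE 0.21, edgeR adjusted p = 0.0486) and that of Ftl1 was 0.18 (SE 0.19, adjusted p = 0.856). The ratio of Fth1 to Ftl1 was 0.80, 0.97 and 1.03 in control sums and 1.30, 1.74 and 1.27 in cKO sums, without overlap (exact permutation p = 0.100, the smallest that 3 against 3 allow). In sums under 20 cells it was 1.38 in control replicate 3 and 1.10 in cKO replicate 5, which overlap the other group.

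Markers within these clusters moved as well. In the monocyte-like cluster the 8 monocyte markers, all detected in each sum, summed to 11990 to 13030 CPM in control and 15370 to 17010 CPM in cKO mice, and the 16 macrophage markers (14 to 16 of them detected) to 3911 to 4108 CPM and 1697 to 1940 CPM. In the Arg1 and Il1a cluster the monocyte markers (7 or 8 of 8 detected) summed to 3105 to 3118 CPM in control and 4661 to 7553 CPM in cKO mice, and the macrophage markers (15 or 16 of 16 detected) to 16500 to 16760 CPM and 11060 to 12950 CPM. No monocyte or macrophage marker was at 0 in either group of these clusters. The part of this shift in the Fth1 differences was not tested.

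Both calls depended on few mice and on how cells were clustered. The call in the Arg1 and Il1a cluster was lost without control replicate 1 (0.79, edgeR adjusted p = 0.59), which leaves 1 control sum, without cKO replicate 7 (0.73, adjusted p = 0.341) and without cKO replicate 8 (0.95, adjusted p = 0.0911). The call in the monocyte-like cluster was lost without control replicate 1 (0.76, adjusted p = 0.257), control replicate 2 (0.76, adjusted p = 0.339), cKO replicate 7 (0.68, adjusted p = 0.31) or cKO replicate 8 (0.89, adjusted p = 0.0562), and neither call held with clusters built on all genes (0.59 and 0.33, adjusted p of 0.217 and 0.875). Of 9 processing alternatives, that was the 1 that lost the call in the Arg1 and Il1a cluster, while 6 lost the call in the monocyte-like cluster (edgeR adjusted p of 0.05 to 0.875).

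Elsewhere Fth1 had log2 fold changes of 0.64 (SE 0.21, edgeR adjusted p = 0.485) in the Cebpb and Cxcr4 cluster, 0.61 (SE 0.22, adjusted p = 0.536) in the lymphoid-like, 0.51 (SE 0.21, adjusted p = 0.815) in the low-UMI macrophage-like, 0.21 (SE 0.21, adjusted p = 0.89) in the Ccr2 and Ms4a8a and 0.12 (SE 0.20, adjusted p = 0.97) in the dendritic cell-like cluster. In the Cebpb and Cxcr4 cluster, 3 of 8 processing alternatives called Fth1: DESeq2 (0.70, adjusted p = 0.0281), edgeR with no filter on low counts (0.74, adjusted p = 0.031) and graph clustering (0.90, adjusted p = 0.0258). In one test of whether the difference itself varied between the 7 clusters, none of the 7 genes passed, beside 0.00904% of 11060 genes. Fth1 had the lowest p among them (0.0845 in edgeR, adjusted p = 1.0). Whether the difference of Fth1 was larger in some clusters than in others was thus not shown.

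**Figure D4:**
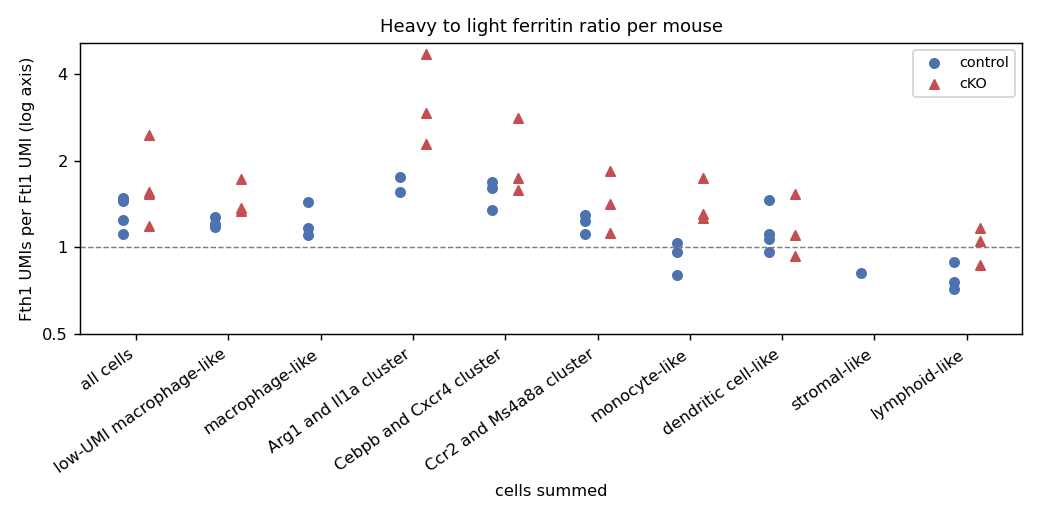
Fth1 UMIs per Ftl1 UMI on a log axis for each mouse, for all cells and for each cluster with at least 20 cells. Circles are control and triangles cKO mice, and the highest ratio is that of cKO replicate 7 in the Arg1 and Il1a cluster, at 4.68.

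The other members showed no call within clusters. The log2 fold change of Ftl1 ranged from -0.05 to 0.35 over 7 clusters (smallest edgeR adjusted p 0.792), that of Hmox1 from -0.46 to 0.57 (0.823), that of Slc11a1 from -1.19 to 0.46 (0.681) and that of Blvrb from -1.38 in the dendritic cell-like cluster to 0.25 (0.568). Tfrc and Slc40a1 had too few UMIs per sum for a fold change to be read.

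Macrophage-like cells, the highest in Hmox1, numbered 5, 7, 14 and 18 in cKO replicates 5 to 8 and were under the 20 cells set for a sum. From 5 cells on, Fth1 was at 10630, 11730, 12650 and 11750 CPM in control and at 9930, 14920, 16860 and 9898 CPM in cKO mice, overlapping (log2 fold change -0.12, SE 0.26, edgeR adjusted p = 0.908). The fitted sign runs against the pooled CPM, which was 11300 in control and 13460 in cKO cells, so that no direction is read from it. Blvrb was at 294.9, 340.4, 166.9 and 275.3 CPM in control and at 122.0, 164.3, 185.0 and 165.5 CPM in cKO mice, a log2 fold change of -1.11 (SE 0.34, unadjusted p = 0.00145 and adjusted p = 0.265 in edgeR). All cKO sums other than that of replicate 7 lay below all control sums, and the fold did not pass, beside 0.158% of 11363 genes called in that contrast. Hmox1 spread from 70.4 to 756.3 CPM over the 4 cKO mice, and gave no stable value from so few cells.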

How the data were processed

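Per the labels and the study's methods, each mouse was 1 well of a 10x Genomics 3′ kit. The authors ran Cell Ranger and STAR 2.5.3a on mm10, with introns of at most 10000 bases, and deposited raw UMI counts per gene and cell. One alignment was reported for a read that mapped to several places, which bears on Ftl1 and its copy Ftl1-ps1. The table had 5947 columns of cells, and 0 columns of per-sample values were left without a sample.

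Cells with log10 UMIs of at least 2.8, log10 genes of at least 2.6, at most 5% mitochondrial UMIs and no hemoglobin UMI were kept. They were normalised with scran 1.30.0 and clustered (Ward's method) on 11536 genes, and clusters were named from marker lists. The 314 genes left out came from the 7 members, the iron and marker lists, Slc3a2, the reporter EYFP and Ftl1-ps1. The others were genes that the study listed as differing between cKO and control cells. Clustering on all genes put these 314 back. Doublets (73 cells, Scrublet in scanpy 1.11.5) were kept and left out in an alternative. Counts were summed per mouse, and per mouse and cluster from 20 cells on. cKO and control were compared with edgeR 4.0.16 (quasi-likelihood test, TMM factors, Benjamini-Hochberg adjustment over all genes tested, threshold 0.05), on genes above 1 CPM in at least 3 sums and with a UMI in at least 20 cells. Single values were compared with exact two-sided permutation tests over mice. CPM scales UMIs to a common library size and logs use CPM + 10. p-values of all cells summed and of the exact tests measure the spread between these mice. Within clusters, a single fit held all 46 sums, with a shared estimate of the spread and no term for the mouse. Sums of the same mouse entered it as separate samples. The fits were tested on simulated data: of 200 genes changed 4-fold, 90.5% were recovered in all cells and 28.5% to 84.5% within clusters. The simulation used a fixed spread and the same mean profile for every sum. The ferritin differences were smaller than 4-fold, so that these rates do not tell how often they would be found.

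The members, the iron list and the marker lists were chosen with earlier results of these data known. The members were always named, as were genes of the iron list past the threshold and the 3 genes most like each member. Alternatives were DESeq2 1.42.0, other normalisations, filters, clusterings and cell minimums, and leaving out each mouse.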

Additional observations from a re-analysis of the deposited data

Results flagged for a closer look

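In 27 groups of 4 mice, the highest or lowest value was set against the rest of its group, and 3 values lay far from the others, where chance gives about 5% of groups. Slc40a1 was at 4.253 CPM in all cells of control replicate 1, with the nearest control mouse at 2.019 CPM. Hmox1 was at 61.11 CPM in all cells of control replicate 3, with the nearest control mouse at 129.4 CPM. Hmox1 was at 93.72 CPM in all cells of cKO replicate 6, with the nearest cKO mouse at 156.9 CPM. Of 147 combinations of a member and a pair of clusters, 0 passed a test of whether the difference between cKO and control differed between the clusters (edgeR).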

How the results depend on the processing

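No paired analysis was possible because the labels give no litter or cage by which control and cKO mice could be paired. The replicate numbers (1 to 4 in control and 5 to 8 in cKO mice) follow the wells. In all cells, 2 members were called. The count was 1 with edgeR's likelihood ratio test, with no filter on low counts, with hemoglobin cells kept, with up to 10% mitochondrial UMIs, without the dendritic cell-like, lymphoid-like and stromal-like clusters, and, chosen after seeing the data, with the small libraries left out. Ftl1 was the gene lost in each of these, with Fth1 also lost and Blvrb gained without the 3 clusters. It was 0 without doublet calls and 0 to 2 with each mouse left out in turn. DESeq2, RLE factors and the merging of Ftl1-ps1, which was not planned, gave 2. Over all genes, 510 calls became 1038 with the likelihood ratio test, 787 with no filter, 333 without those 3 clusters and 145 to 712 with a mouse left out.

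Within clusters, 2 calls became 1 with the likelihood ratio test, from 10 cells, from 5 cells (chosen after seeing the data) and without doublet calls, 0 with clustering on all genes, and 0 to 2 with a mouse left out. DESeq2 and no filter on low counts gave 3. The ferritin ratio differed by 0.108 to 0.458 (log2) with a mouse left out. The difference in ferritin share was 0.598 to 0.857 percentage points with a mouse left out. It was 0.798 with the small libraries left out, where 3 against 3 mice cannot give a p below 0.1. None of these alternatives was planned for the share. Comparisons of a gene between a pair of clusters that pointed one way in every mouse numbered 72 to 110 with a mouse left out, or 49.0% to 58.2% of those with 3 mice, against 52.9%. Signs turned for Tfrc in all cells (0.04 without doublet calls, 0.15 without the 3 clusters, -0.21 to 0.17 with a mouse left out), for Hmox1 without the 3 clusters (-0.22), and for Fth1 in the dendritic cell-like cluster (-0.10 from 5 cells, -0.18 with graph clustering, -0.14 to 0.32 with a mouse left out). The cause of these changes was not tested. Depth limited Tfrc and Slc40a1 throughout.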
